A study of Rattus norvegicus with 8 samples.

Results

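The genes described here are the 10 subunits of integrins that bind collagen or fibronectin, taken by gene symbol from a table of 15590 genes of the rat Achilles tendon. All 10 had a row, and all 10 passed the filter on low values, which kept 13863 genes for testing. They comprised 4 α subunits of the collagen receptors (Itga1, Itga2, Itga10 and Itga11), 3 α subunits that recognise the RGD tripeptide of fibronectin and related proteins (Itga5, Itga8 and Itgav) and 3 β subunits (Itgb1, Itgb3 and Itgb5). The question was whether the levels of these receptor genes differed in tendons taken directly after running.

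Polyadenylated RNA was sequenced from the right Achilles tendons of male wild-type Sprague-Dawley rats of 8 to 10 weeks. A group of 4 libraries came from rats killed directly after 1 h on an inclined treadmill (0 h p.r., post-running), and 4 came from naïve control rats that stayed in their cages (NC). By the methods of the study the cage controls were killed together with the rats that rested for 12 h. The treatment text of the samples instead has both groups killed immediately, which the sample titles state for 0 h p.r. only. The time of killing of the controls is therefore uncertain, and if it differed, running and time of killing cannot be told apart. The labels do not say outright that each library came from its own rat, and p-values measure only the spread between these libraries.

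Integrins are receptors of the cell surface made of an α and a β chain. The α chain largely sets which matrix protein is bound, and the short tails of the β chain connect through talin and kindlin to actin. The α chains of the collagen receptors and Itga5 and Itga8 all pair with Itgb1, whereas Itgav pairs with several β chains, among them Itgb3 and Itgb5. In tendon these receptors hold tenocytes to a matrix made mainly of type I collagen fibers and take part in sensing load.

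Reads recovered from the table came to between 11350560 and 17897056 per library. NC replicate 2 was the shallowest library. It had 31.08% of its FPKM in 13 mitochondrial protein-coding genes, against 16.28% to 21.94% in the other libraries. FPKM counts fragments per kilobase of a transcript relative to depth, and these values were already scaled between libraries. The 7 tenocyte markers were all tested, and their summed level was 3350 to 6290 FPKM in NC and 3630 to 6950 FPKM in 0 h p.r., with none called and with Comp showing the largest log2 difference (0.67, limma adjusted p = 0.167). Markers of other tissues differed strongly between libraries. The summed level of 8 skeletal muscle genes was 4400 to 6470 FPKM in NC but 29200, 5050, 13800 and 894 FPKM in 0 h p.r. replicates 1 to 4, and the 8 adipocyte genes summed to 2990 to 6080 FPKM in NC and 965 to 2210 FPKM in 0 h p.r., where 5 of them fell (Cidec, Lep, Cfd, Plin4 and Adipoq, with log2 differences from -2.41 for Cidec to -1.34 for Plin4), beside a share of 5.72% called over all tested genes. Each of the 5 was under an adjusted p of 0.05 in only 2 to 4 of the 8 fits with a library left out. None of the 8 muscle genes was called. The log2 difference was positive in 6 of them and negative in 2, with a median of 0.93. Myh7, 1 of the 2, had the largest difference (-3.42, limma adjusted p = 0.169). The part of these tissues in the integrin results was not tested. In RNA from whole tissue, fewer cells of a type and less RNA per cell cannot be told apart.

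No integrin of the 10 passed both thresholds of the study's design, an adjusted p under 0.05 with a fold of at least 2, and limma's voom on the recovered reads also called 0, whereas 374 of the 13863 tested genes did (2.70%). Itga5, the α chain of the main fibronectin receptor, was the only one with an adjusted p under 0.05 at any fold, and it rose. Such calls made up 5.72% of all tested genes, and calls that were higher in 0 h p.r. made up 3.49%, so 1 of 10 was near the background. At an unadjusted p under 0.05 there were 2 members, Itga5 and Itga10, against 22.6% of all tested genes. In 3 members, Itga5, Itga10 and Itgb1, the groups did not overlap, against 15.6% of all tested genes, and in all 3 the 0 h p.r. libraries were the higher ones, which held for 8.15% of tested genes. The log2 difference was positive in 8 members and negative in 2, with a median of 0.24, beside a median of -0.001 over all tested genes.

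The sequences upstream of the start sites of these 3 genes whose groups did not overlap are shown because the 3 genes differ in base composition and in the motifs found there. They are the 250 bases before the start, 5′ to 3′ on the strand of the gene, from RefSeq on build GRCr8, which is not the build of the expression table. Capitals mark the motif matches described after them. Itga5 lies on the minus strand at chr7:136381306-136381555, Itga10 on the plus strand at chr2:186871461-186871710 and Itgb1 on the plus strand at chr19:73602027-73602276.
Itga5: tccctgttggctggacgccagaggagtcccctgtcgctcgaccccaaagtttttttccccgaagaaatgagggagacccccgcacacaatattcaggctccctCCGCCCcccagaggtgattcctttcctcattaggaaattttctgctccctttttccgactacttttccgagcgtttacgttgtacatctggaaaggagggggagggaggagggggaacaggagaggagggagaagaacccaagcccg
Itga10: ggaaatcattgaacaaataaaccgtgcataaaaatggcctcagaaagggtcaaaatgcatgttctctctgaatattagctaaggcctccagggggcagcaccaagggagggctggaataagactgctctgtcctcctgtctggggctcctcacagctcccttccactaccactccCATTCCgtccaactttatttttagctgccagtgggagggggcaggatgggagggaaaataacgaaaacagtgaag
Itgb1: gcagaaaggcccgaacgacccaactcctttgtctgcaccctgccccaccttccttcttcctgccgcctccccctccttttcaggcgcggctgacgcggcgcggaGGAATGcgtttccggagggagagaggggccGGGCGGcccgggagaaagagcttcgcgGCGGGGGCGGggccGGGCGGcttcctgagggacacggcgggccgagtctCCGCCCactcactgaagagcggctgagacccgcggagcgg

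The GC content of these sequences was 55.6% for Itga5, 49.6% for Itga10 and 71.2% for Itgb1, beside a median of 51.2% over 33469 rat promoters of the same length. Of the 10 integrins, 9 had an entry and Itgb3 did not. GC content over the 9 ran from 49.6% (Itga10) to 74.4% (Itgb5), and the motif shares over all promoters were not matched for it. Both strands were searched for 8 motifs. The Sp1 motif GGGCGG was found in 5 of the 9 (Itga2, Itga11, Itga5, Itgav and Itgb1) and in 30.5% of all promoters. In Itga5 it began 147 bases before the start site, and Itgb1 held it at 116, 85, 75 and 40 bases. The TEAD motif GGAATG, bound by the partners of Yap and Taz, was found in Itga10 (75 bases before the start) and Itgb1 (146 bases), 2 of the 9, and in 12.1% of all promoters. The EGR motif GCGNGGGCG was found in Itgb1 alone, 89 bases before the start and overlapping a Sp1 match, and in 4.29% of all promoters. None of the 9 held the AP-1 motif TGANTCA (6.34% of all promoters), the CRE motif TGACGTCA (1.59%), a CArG box (1.5%), the hypoxia response motif ACGTG (16.6%) or the TATA motif TATAAA (12.9%). A match is a description of the letters in this window.

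Levels of the 10 genes, given per kilobase of transcript as FPKM, spanned a wide range. In NC the order of mean levels was Itgb1, Itgb5, Itga5, Itga1, Itgav, Itga8, Itga10, Itga11, Itgb3 and Itga2, from 203 FPKM ± 4.96 (SD, n = 4) down to 1.72 FPKM ± 0.905 (SD, n = 4). Itgb1 ranked 323 by mean level among the 13863 tested genes, Itgb5 872 and Itga5 1475, whereas Itgb3 ranked 10446 and Itga2 11518. In both groups the first 3 of the order were separate from each other and from the next gene, with no overlap of their ranges over 4 libraries. Below them every pair of neighbours overlapped. In 0 h p.r. places 4 to 7 were held by Itga10, Itgav, Itga1 and Itga8, and the other places were as in NC. The range of Itga10 overlapped those of Itgav and Itga1.

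**Figure D1:**
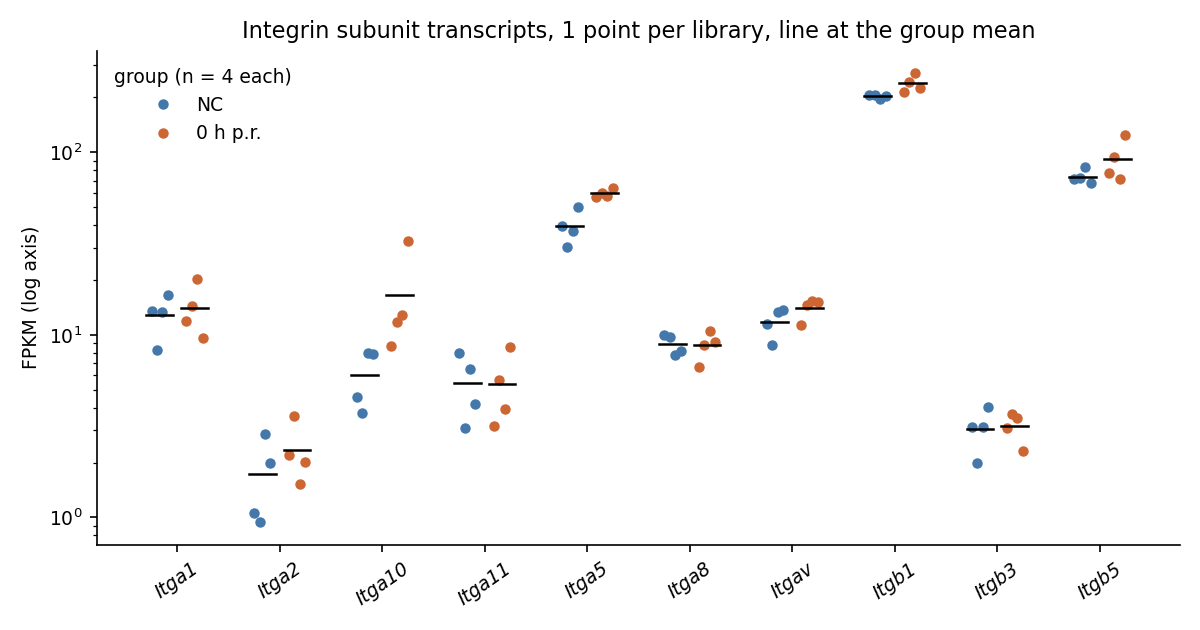
FPKM of each of the 10 integrin genes in the 8 libraries, on a log axis, with NC and 0 h p.r. side by side. Each point is a library and each line the mean of 4. Within each group Itgb1, Itgb5 and Itga5 lie above all other members, and the groups are separate in Itga5, Itga10 and Itgb1.

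**Figure D2:**
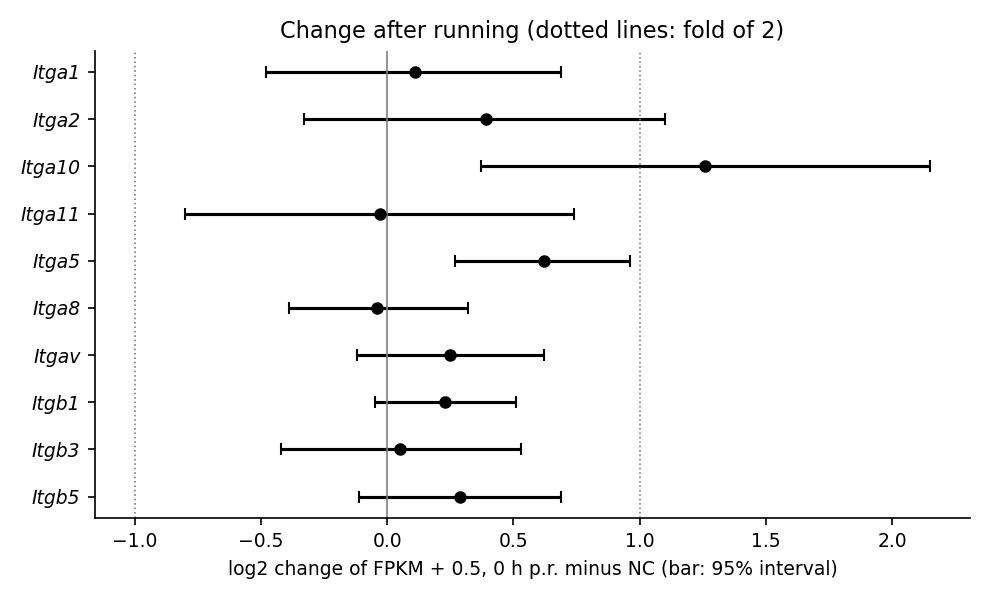
Log2 difference in log2(FPKM + 0.5) between 0 h p.r. and NC for each integrin gene, with the 95% interval from limma. The intervals of Itga5 (0.27 to 0.96) and Itga10 (0.37 to 2.15) lie above 0, and the other 8 include 0.

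Among the α subunits of the collagen receptors, Itga10 showed the largest difference. Itga10 (ENSRNOG00000021217), whose protein is best known from chondrocytes and mesenchymal precursors, had 4.57, 3.73, 7.91 and 7.83 FPKM in NC replicates 1 to 4. In 0 h p.r. replicates 1 to 4 it had 8.69, 11.7, 12.9 and 32.7 FPKM. Every 0 h p.r. library was above every NC library, and replicate 4 stood well above the other three. The means were 6.01 ± 2.18 and 16.5 FPKM ± 10.9 (SD, n = 4), and the log2 difference was 1.26 with an SE of 0.40, a fold of 2.4 with a 95% interval of 1.29 to 4.45. The adjusted p in the limma fit across all genes was 0.0977 (unadjusted 0.0109), which did not pass. The exact two-sided permutation test gave p = 0.0286, the smallest that 4 against 4 libraries allows and the value of any gene whose groups do not overlap. Without 0 h p.r. replicate 4 the log2 difference was 0.88 (adjusted p = 0.089), and over all 18 alternative settings the adjusted p was 0.0634 to 0.225.

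Chad, Acan, Sox9 and Col2a1, of the 6 cartilage markers found, were highest in the same library, whereas Col11a2 (14.8 FPKM) and Col9a1 (0.495 FPKM) were not. The summed level of the 6 markers was 1180, 1530, 1650 and 1210 FPKM in NC replicates 1 to 4 and 1700, 2250, 2190 and 4470 FPKM in 0 h p.r. replicates 1 to 4, so the groups were separate. Chad, a leucine-rich matrix protein of cartilage that is also high in tendon, made up 90.9% to 98.9% of each sum, and without it the sums were 16.2 to 80.4 FPKM in NC and 88.2 to 342 FPKM in 0 h p.r. Of the 5 cartilage markers tested, 0 were called and 4 had a positive difference. Aggrecan, Acan, had 8.82, 3.90, 28.5 and 21.8 FPKM in NC and 23.8, 44.8, 55.4 and 130 FPKM in 0 h p.r. (log2 difference 2.06, limma adjusted p = 0.0998). Sox9, the transcription factor of chondrocytes, had 2.57 to 6.64 FPKM in NC and 10.2, 8.09, 8.08 and 25.1 FPKM in 0 h p.r. (1.29, adjusted p = 0.1), and Col2a1, the main collagen of cartilage, showed the largest difference of the list (2.75, adjusted p = 0.161). The summed level of the 6 bone markers was 14.6 to 54.7 FPKM in NC and 69.8, 124, 53.3 and 185 FPKM in 0 h p.r. Phex had 0.147 to 0.334 FPKM in NC and 0.735 to 0.909 FPKM in 0 h p.r. (log2 difference 0.83, adjusted p = 0.0243), but passed the filter on low values only through 0 h p.r. It was the only bone marker called of 5 tested, beside 5.72% of all genes, and was under 0.05 in 3 of the 8 fits with a library left out (0.0334 to 0.0816). Bglap had the largest difference (2.24, adjusted p = 0.226). The part of cartilage and bone tissue in the Itga10 result was not tested.

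**Figure D3:**
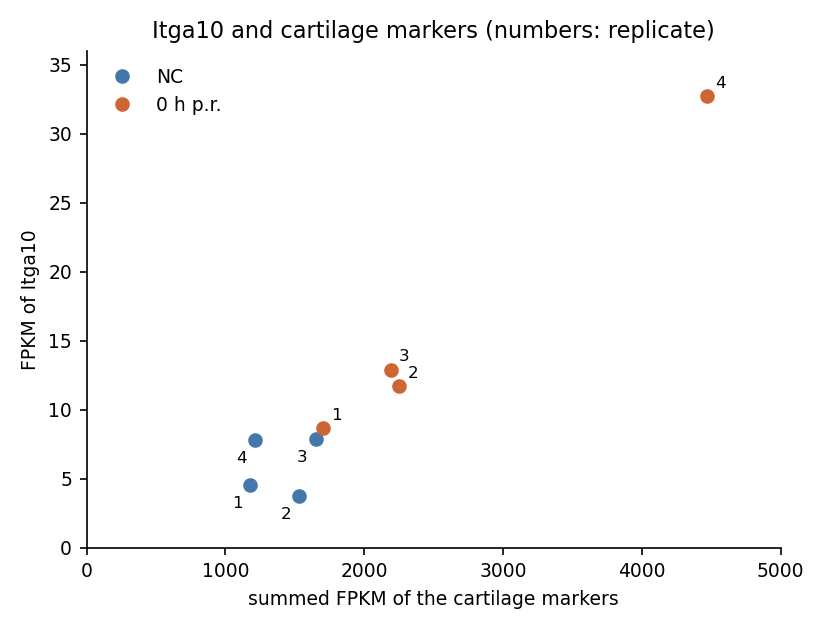
FPKM of Itga10 against the summed FPKM of the cartilage markers in the 8 libraries, labelled by replicate. 0 h p.r. replicate 4 is highest on both axes, with 32.7 FPKM of Itga10 and a cartilage sum of 4470 FPKM.

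The other collagen-binding α subunits did not pass the test, and their groups overlapped. Itga1 (ENSRNOG00000053550), which binds collagen IV and fibrillar collagens and is common on smooth muscle and small vessels, had 13.5, 8.28, 13.4 and 16.5 FPKM in NC. In 0 h p.r. it had 11.9, 14.4, 20.3 and 9.66 FPKM. Only 1 of the 4 post-running libraries was above the NC range and none was below it, and the log2 difference was 0.11 with an interval of -0.48 to 0.69 (limma adjusted p = 0.866). Itga11 (ENSRNOG00000006723), a receptor for type I collagen on fibroblasts, had 7.92, 3.10, 6.51 and 4.16 FPKM in NC and 3.18, 5.65, 3.94 and 8.63 FPKM in 0 h p.r. Both groups covered nearly the same range, with a log2 difference of -0.03 and an interval of -0.8 to 0.74 (adjusted p = 0.975). Itga2 (ENSRNOG00000058111), the collagen receptor of platelets and epithelia, was the lowest of the members, with 1.06, 0.942, 2.88 and 2.00 FPKM in NC and 2.20, 3.60, 1.52 and 2.01 FPKM in 0 h p.r. Its log2 difference was 0.39 with an interval of -0.33 to 1.1 (adjusted p = 0.527). It rested on 36 to 252 recovered reads per library, and at 36 reads counting error alone is 16.7%. The intervals of Itga1 and Itga11 leave out a doubling or a halving, and that of Itga2 does not leave out a doubling.

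Summed over the 4 genes, the collagen-binding α subunits came to 26.1 FPKM ± 6.89 in NC and 38.2 FPKM ± 11.2 in 0 h p.r. (SD, n = 4), with overlap. The difference of 12.1 FPKM was 7.2 FPKM without 0 h p.r. replicate 4. Their makeup differed between the groups as a description without a test. Itga10 was 22.9% ± 4.17 of the sum in NC, between 16.9% and 25.8%, and 40.4% ± 14.2 in 0 h p.r., between 33.0% and 61.7%. Itga1 was 49.8% of the sum in NC and 39.3% in 0 h p.r., Itga11 20.9% and 13.7%, and Itga2 6.44% and 6.6%, all 3 with overlap between the groups.

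Among the α subunits that bind RGD, Itga5 rose while Itga8 and Itgav did not pass the test. Itga5 (ENSRNOG00000057451), which with Itgb1 forms the receptor that assembles fibronectin fibrils, had 39.4, 30.3, 37.0 and 50.3 FPKM in NC. In 0 h p.r. it had 56.8, 60.1, 57.4 and 63.6 FPKM. All 0 h p.r. libraries were above the highest NC library and lay close together, with a coefficient of variation of 5.24% against 21.2% in NC. The means were 39.3 ± 8.33 and 59.5 FPKM ± 3.12 (SD, n = 4), and the log2 difference was 0.62 with an SE of 0.15, a fold of 1.53 with a 95% interval of 1.21 to 1.94. The limma test gave p = 0.00278 and an adjusted p of 0.0493, just under the threshold, and the exact two-sided permutation test gave p = 0.0286. The adjusted p was 0.0239 to 0.139 over 18 alternative settings and under 0.05 in 6 of them. With a library left out in turn it was under 0.05 in 1 of 8 fits (0.0278 without NC replicate 4) and otherwise between 0.0582 (NC replicate 2 left out) and 0.134 (0 h p.r. replicate 2 left out), while the log2 difference stayed between 0.50 and 0.74.

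Itgav (ENSRNOG00000004912), the α chain of receptors for vitronectin, fibronectin and latent TGF-β, had 11.4, 8.84, 13.3 and 13.7 FPKM in NC and 11.3, 14.5, 15.3 and 15.2 FPKM in 0 h p.r. In 3 of 4 post-running libraries it was above the highest NC library, and the log2 difference was 0.25 with an interval of -0.12 to 0.62 (limma adjusted p = 0.419). Itga8 (ENSRNOG00000016538), found on smooth muscle and myofibroblasts, had 9.998, 9.76, 7.79 and 8.20 FPKM in NC and 6.64, 8.77, 10.5 and 9.18 FPKM in 0 h p.r. Its groups overlapped, with a log2 difference of -0.04 and an interval of -0.39 to 0.32 (adjusted p = 0.931). The 3 RGD-binding α subunits summed to 60.0 FPKM ± 9.63 in NC and 82.3 FPKM ± 5.52 in 0 h p.r. (SD, n = 4). The sums were separate, at 60.8, 48.9, 58.1 and 72.3 FPKM in NC and 74.8, 83.3, 83.2 and 88.0 FPKM in 0 h p.r., and Itga5 took 65.0% and 72.3% of them, with overlap. The RGD-binding sum was 2.39 ± 0.48 times the collagen-binding sum in NC, against 2.26 ± 0.504 times in 0 h p.r. (SD, n = 4).

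**Figure D4:**
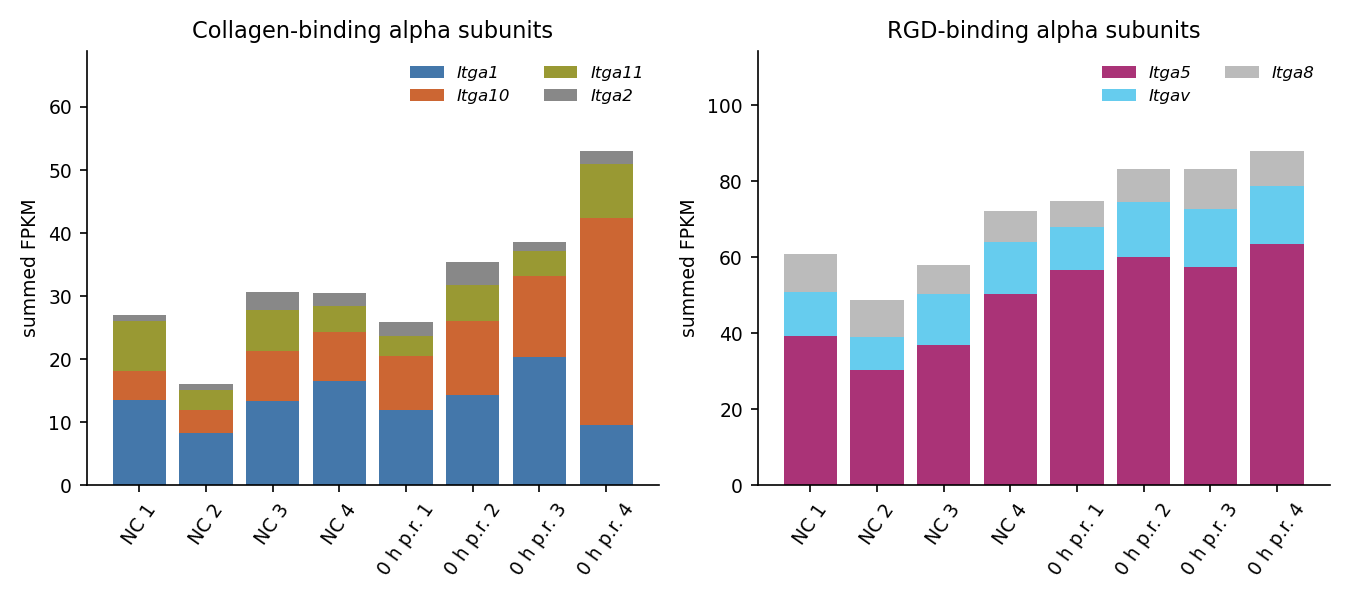
Summed FPKM of the collagen-binding α subunits (left) and of the RGD-binding α subunits (right) in each of the 8 libraries, with the members stacked as bars. The RGD-binding sums of 0 h p.r. lie above all NC sums, whereas the collagen-binding sums overlap (16.1 to 30.7 FPKM in NC and 26.0 to 53.0 FPKM in 0 h p.r.).

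The β subunits Itgb1 and Itgb5 were the most abundant members. Itgb1 (ENSRNOG00000010966), the shared partner of all collagen-binding α chains, had 205, 207, 196 and 203 FPKM in NC and 215, 244, 271 and 225 FPKM in 0 h p.r. The NC libraries differed little, with a coefficient of variation of 2.45%, and each 0 h p.r. library was above them. The log2 difference was 0.23 with an SE of 0.12, a fold of 1.17 with a 95% interval of 0.967 to 1.42. The limma test gave an adjusted p of 0.314 and an unadjusted p of 0.0952. The exact two-sided permutation test gave p = 0.0286, which restates that the groups do not overlap. Itgb5 (ENSRNOG00000001795), which pairs with Itgav as a vitronectin receptor, had 71.5, 71.9, 83.0 and 67.9 FPKM in NC and 77.1, 94.5, 71.8 and 124 FPKM in 0 h p.r. The groups overlapped and 0 h p.r. replicate 4 was the highest, with a log2 difference of 0.29 and an interval of -0.11 to 0.69 (adjusted p = 0.38). The table lists Itgb5 as a processed transcript rather than as protein-coding, so its level per kilobase rests on that gene model. Itgb3 (ENSRNOG00000048449), the partner of Itgav on endothelium and osteoclasts and of Itga2b on platelets, had 3.11, 1.98, 3.13 and 4.02 FPKM in NC and 3.08, 3.71, 3.52 and 2.32 FPKM in 0 h p.r. Its log2 difference was 0.05 with an interval of -0.42 to 0.53 (adjusted p = 0.921), on 47 to 161 recovered reads per library.

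Summed over the 3 genes, the β subunits had 279, 281, 282 and 275 FPKM in NC and 295, 342, 346 and 351 FPKM in 0 h p.r., so the sums were separate. Itgb1 made up 72.6% of the sum in NC and 71.6% in 0 h p.r., Itgb5 26.3% and 27.4%, and Itgb3 1.1% and 0.952%. Itgb1 was 2.43 ± 0.53 times the sum of the 7 α subunits in NC, against 2.0 ± 0.279 times in 0 h p.r. (SD, n = 4), with overlap. These are ratios of RNA per kilobase and not of protein at the cell surface.

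**Figure D5:**
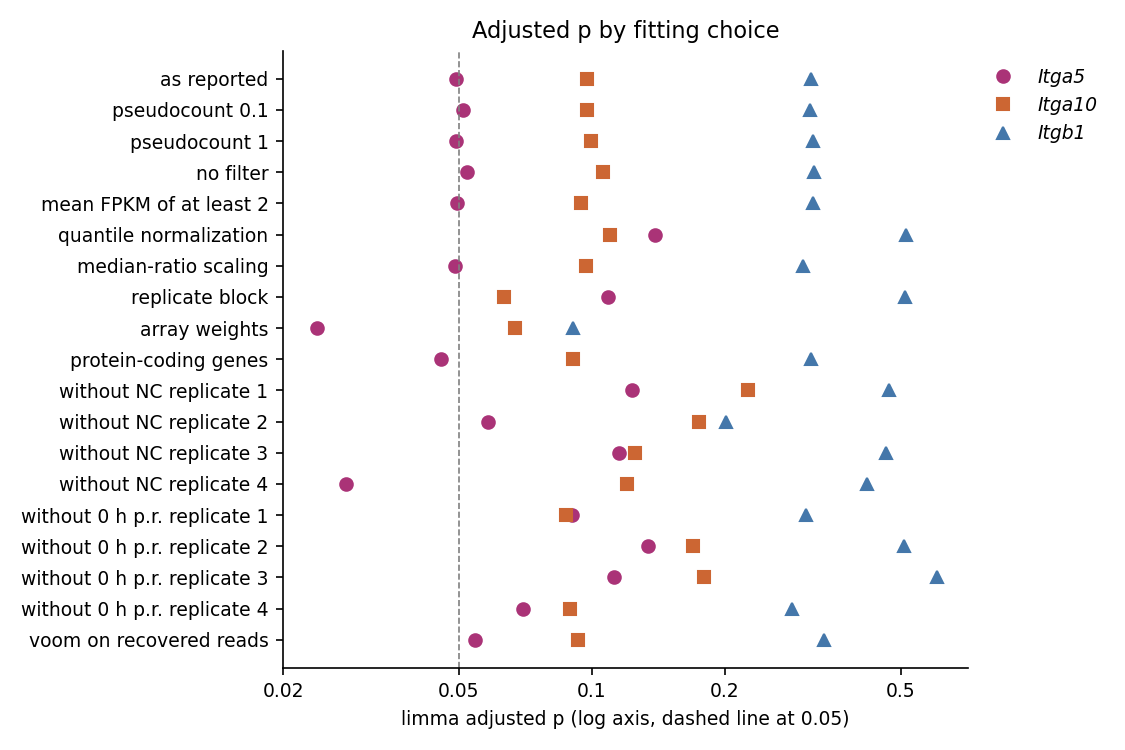
Limma adjusted p of the 3 genes whose groups did not overlap, Itga5, Itga10 and Itgb1, as reported and under each of the 18 alternative settings, on a log axis with a dashed line at 0.05. Itga5 lies on both sides of the line (0.0239 to 0.139), whereas Itga10 (0.0634 to 0.225) and Itgb1 (0.0906 to 0.603) stay over it.

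Some libraries were low or high in many of the members. NC replicate 2, the shallowest library, was the lowest of its group in 7 of the 10 genes. 0 h p.r. replicate 1, which had the highest level of muscle genes, was the lowest of its group in 6 of 10. NC replicate 4 and 0 h p.r. replicates 3 and 4 were each the highest of their group in 4 of 10. Spread between replicates was smallest for Itgb1 in NC (2.45%) and largest for Itga10 in 0 h p.r. (66.4%), as coefficients of variation of the FPKM. The part of depth and of muscle RNA in this spread was not tested.

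Other cells of the tendon carry some of these integrins, and their markers were counted beside them. Of 6 endothelial markers none was called, with sums of 389 to 439 FPKM in NC and 323 to 439 FPKM in 0 h p.r. (largest difference Kdr, -0.40, limma adjusted p = 0.332). The 9 smooth muscle and pericyte markers summed to 2090 to 2680 FPKM in NC and 2200 to 3320 FPKM in 0 h p.r. Of these 9, 1 was called, Kcnj8, which fell (-0.85, adjusted p = 0.0476), beside 5.72% called over all tested genes. Its adjusted p was under 0.05 in 2 of the 8 fits with a library left out (0.0358 to 0.131). The difference was positive in 6 of the 9 and negative in 3, and Cnn1 had the largest (0.87). Platelet markers, relevant for Itga2 and Itgb3, summed to 29.7 to 51.3 FPKM in NC and 20.6 to 49.8 FPKM in 0 h p.r., nearly all of it Pf4, with Gp9 under 0.5 FPKM in every library and with Itga2b showing the larger difference of the 2 tested (-0.31, adjusted p = 0.325). The 5 macrophage markers summed to 49.1 to 86.3 FPKM and 33.8 to 74.2 FPKM with none called. The difference was positive in 2 of them and negative in 3, and Cd163 had the largest (-1.09, adjusted p = 0.0982). The 5 Schwann cell markers summed to 286 to 452 FPKM and 178 to 310 FPKM with none called. Again 2 were positive and 3 negative, and S100b had the largest difference (-0.77, adjusted p = 0.141). Neutrophil markers were at or near the limit, with sums of 1.29 to 3.94 FPKM and 1.38 to 2.24 FPKM, and each of the 2 that were tested passed the filter only through the group where it was higher. S100a9 had 0.191 to 0.746 FPKM in NC and 1.05 to 1.71 FPKM in 0 h p.r. (1 to 15 reads, log2 difference 1.23, adjusted p = 0.0192), and Mpo had 1.1 to 2.98 FPKM in NC and 0.238 to 0.46 FPKM in 0 h p.r. (-1.45, adjusted p = 0.0146). The part of these cells in the integrin results was not tested.

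For comparison with the size of the changes, 10 of 12 immediate-early genes rose in the same libraries, beside 3.49% called higher over all tested genes. The median log2 difference of the 12 was 2.56. Junb rose by 2.88 on the log2 scale (limma adjusted p = 9.7e-05), Ier2 by 1.67, Ier3 by 1.86, Nr4a1 by 3.45 and Egr1 by 2.44, and Nr4a3 had the largest difference (3.61). Of 13 clock genes 1 was called, Ciart (2.28, adjusted p = 0.0415), beside 5.72% of all tested genes, and its adjusted p was under 0.05 in 1 of the 8 fits with a library left out (0.00226 to 0.119). The difference was positive in 10 of the 13 clock genes and negative in 3, with a median of 0.23. The part of the time of killing in the integrin results was not tested.

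The 5 genes whose pattern was most like that of Itga5, the member with the lowest p, were Tlnrd1, RGD1564854, Slc25a37, Appbp2 and LOC108348065. Likeness was the mean absolute difference of log2(FPKM + 0.5), centred on each gene's mean, over the 8 libraries, and was 0.069, 0.075, 0.077, 0.081 and 0.085 in that order among 13862 genes. Tlnrd1 had 17.5 FPKM ± 3.93 in NC and 24.3 FPKM ± 0.409 in 0 h p.r. (SD, n = 4). RGD1564854 (means of 0.336 FPKM in NC and 0.657 FPKM in 0 h p.r.) and LOC108348065 (0.557 and 1.11 FPKM) were low. At such levels the added 0.5 understates the change, so their likeness to Itga5 rests partly on that scale. Appbp2 was the only one of the 5 with an adjusted p under 0.05 in the limma fit (log2 difference 0.59, adjusted p = 0.0446). The 5 were picked for following Itga5 over these libraries, so their group differences are not separate evidence.

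Of the remaining integrin subunits, 14 were tested and 1 rose, Itga3, a share near the 5.72% called over all tested genes. Itga3, the α chain of a laminin receptor, had 7.67, 6.50, 6.96 and 9.70 FPKM in NC and 17.7, 15.2, 24.2 and 11.3 FPKM in 0 h p.r. The groups were separate, with means of 7.71 ± 1.41 and 17.1 FPKM ± 5.41 (SD, n = 4), a log2 difference of 1.07 with an SE of 0.22 (limma adjusted p = 0.0305). It was under 0.05 in 2 of the 8 fits with a library left out (0.00911 to 0.0857). The median log2 difference of the 9 other α subunits tested was -0.02 and that of the 5 other β subunits was -0.01. Itga7, the α chain of the laminin receptor of muscle, had 36.6 FPKM ± 7.62 in NC and 24.9 FPKM ± 1.24 in 0 h p.r. (SD, n = 4, log2 difference -0.53, adjusted p = 0.0832), and was picked after its values were seen. Itgb4 (-0.01) and Itga6 (-0.02), which together form the receptor of hemidesmosomes, were nearly level between the groups. Of the other β subunits Itgb7 had the largest difference (-0.30, adjusted p = 0.614). Itgax was at 0.25 FPKM in NC and was not tested.

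Of 20 genes for matrix ligands of the members that were tested, 1 rose and 1 fell, beside 5.72% called in either direction over all tested genes, and the median log2 difference was 0.07. Thbs1, which encodes thrombospondin 1, rose from 57.6 ± 17.2 to 175 FPKM ± 56.4 (SD, n = 4), a log2 difference of 1.59 with an SE of 0.28 and a limma adjusted p of 0.0159. Postn, which encodes periostin, fell from 77.7 ± 16.1 to 32.0 FPKM ± 9.49 (SD, n = 4), a log2 difference of -1.28 with an SE of 0.23 and an adjusted p of 0.0162. Each was under 0.05 in 6 of the 8 fits with a library left out, up to an adjusted p of 0.0561. The log2 difference was positive in 13 of the 20 and negative in 7. Fn1, which encodes fibronectin, went from 330 ± 150 to 725 FPKM ± 474 (SD, n = 4, log2 difference 1.01, limma adjusted p = 0.265). Spp1 went from 357 ± 86.7 to 1030 FPKM ± 655 (SD, n = 4, log2 difference 1.37, limma adjusted p = 0.0769). Both were highest in 0 h p.r. replicate 4 and were picked after their values were seen. The study lists both among its differentially expressed genes at 0 h p.r. Of the 3 collagen receptors outside the integrin family that were tested, none was called, and Ddr1 had the largest difference (-0.31, adjusted p = 0.5).

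On the cytoplasmic side, 46 genes of adhesion adaptors, kinases and small GTPase regulators were tested, of which 4 rose and 1 fell. Over all tested genes 5.72% were called in either direction and 3.49% were called higher. The adaptors that rose were Bcar1, Nedd9 and Fermt2. Bcar1, the stretch-sensitive substrate of Src known as p130Cas, went from 18.2 ± 1.46 to 33.2 FPKM ± 5.61 (SD, n = 4, log2 difference 0.84, limma adjusted p = 0.0141), and its relative Nedd9 from 8.27 ± 0.859 to 15.3 FPKM ± 2.77 (SD, n = 4, log2 difference 0.84, limma adjusted p = 0.0198). Fermt2, the kindlin that binds the tails of β chains, went from 73.3 ± 5.6 to 106 FPKM ± 12.0 (SD, n = 4, log2 difference 0.52, limma adjusted p = 0.0405), and was over 0.05 in each of the 8 fits with a library left out (0.0512 to 0.116). Crk, the adaptor that binds phosphorylated Bcar1, rose from 47.8 ± 3.66 to 79.3 FPKM ± 15.1 (SD, n = 4, log2 difference 0.70, limma adjusted p = 0.0377). Rasgrp2, the activator of Rap1 in blood cells, fell from 6.38 ± 0.632 to 3.62 FPKM ± 0.481 (SD, n = 4, log2 difference -0.74, limma adjusted p = 0.0187). Bcar1 was under 0.05 in 6 of the 8 fits with a library left out, Nedd9 in 5, Rasgrp2 in 4 and Crk in 1. The median log2 difference was 0.04 over the 25 adaptors and 0.03 over the 21 kinases and GTPase regulators.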

How the data were processed

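Poly(A) RNA of 4 NC and 4 0 h p.r. tendons was sequenced from stranded libraries. The submitters' processing notes name HISAT2 2.1.0, featureCounts 1.6.3, DESeq2 1.30.1 and build Rnor_6.0. The authors deposited FPKM per gene and library, already scaled between libraries (median ratio to the gene means 0.9994 to 1.0138). Their own log2 fold changes and p-values in the same table were not used, and 0 columns belonged to other samples.

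Whole reads were recovered from the steps of the FPKM values for 15590 of 15590 genes (100% within 0.01 of a whole number) and served as depth. The recovered reads were fitted only with limma's voom, as an alternative, and negative binomial models were not run. Genes with FPKM of at least 0.5 in at least 4 libraries (13863) were tested on log2(FPKM + 0.5), which understates the change of low genes, with limma 3.58.1 in R 4.3.3 (trend, no covariate, two-sided, Benjamini-Hochberg adjustment over all tested genes) and with exact permutation tests over 70 assignments of the libraries. The fit was also run on simulated data, whose outcome is not used here.

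Members and lists were chosen with earlier results of these data known. From each list the genes with an adjusted p under 0.05 (at most 6) and the gene with the largest change were named, together with the 5 genes most like the member of lowest p. Alternatives were other pseudocounts (0.1 and 1), filters, scalings, the replicate block, array weights, protein-coding genes only, voom on the recovered reads, and leaving out each library. Promoters came from RefSeq (GRCr8).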

Additional observations from a re-analysis of the deposited data

Results flagged for a closer look

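The summed level of the 3 β subunits in 0 h p.r. replicate 1 was 295 FPKM, against 342 to 351 FPKM in the other 3 libraries of the group. The gap to the nearest library was 0.847 of the group's range, over Dixon's critical value for 4 samples. Of 26 groups of values examined 1 was picked out in this way, and chance picks about 1 in 20. This library also had the highest summed level of muscle markers (29200 FPKM), whose part in the low sum was not tested.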

How the results depend on the processing

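No integrin passed both thresholds under any of the 18 alternatives. Itgb5, listed as a processed transcript, was not fitted in the protein-coding setting and so had 17. The count of integrins with an adjusted p under 0.05 (1, Itga5) was 0 with a pseudocount of 0.1, no filter, quantile normalization, the replicate block or voom, and 0 to 1 with a library left out. No pairing of same-numbered libraries was seen in the values (correlations of their deviations -0.141 to 0.0717, and not every library correlated best with its own number). The labels do not say whether the numbers mark pairs, and these correlations cannot exclude it. With the replicate number as a block, the genes of the whole table with an adjusted p under 0.05 went from 793 to 235 and Itga5 had an adjusted p of 0.109. Under the same block the counts of other integrins (1), ligands (2) and adaptors with kinases (5) were each 0. With array weights they were 2, 6 and 8, and quantile normalization gave 3 adaptors and kinases. With a library left out they were 0 to 1, 0 to 4 and 0 to 6. The lost calls have fewer samples where a library is left out, and for the other settings the cause was not tested. Over the whole table the count was 2069 with array weights and 251 to 1178 with a library left out.

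Of the integrins' log2 differences under the alternatives, 155 kept their direction and their side of the threshold, 12 (all Itga5) kept their direction only, and 12 changed sign, all in members with small differences. Itga8 was 0.03 with array weights. The other sign changes came from fits with 1 library left out, whose values ranged from -0.08 to 0.26 for Itga1 (below 0 in the fits lacking NC 2 or post-running 3), from -0.27 to 0.17 for Itga11 (above 0 in those lacking NC 1, NC 3, post-running 1 or post-running 3), from -0.12 to 0.08 for Itga8 (above 0 in those lacking NC 1, NC 2 or post-running 1) and from -0.11 to 0.18 for Itgb3 (below 0 in those lacking NC 2 or post-running 2). Depth limits Itga2 and Itgb3 most, where counting error reached 16.7% and 14.6% in the shallowest library, and counting errors cover reads only, not molecules.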
